A study of Mus musculus with 3 samples.

Results

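The genes described here encode splicing factors, and the regions are the NR2F2 binding peaks at their promoters. Members were the curated RefSeq genes of the mouse assembly GRCm38 whose symbols begin with Srsf, Snrp, Sf3a, Sf3b, Hnrnp, Lsm or Prpf, after 1 pseudogene was dropped. This gave 80 genes, all protein-coding, of 21000 protein-coding genes in the annotation. A gene was called bound when a peak lay within 1 kb of one of its transcription start sites (TSS). At these genes lay 52 of the 10069 peaks of the series, and 5654 peaks lay within 1 kb of a TSS of any protein-coding gene (called promoter peaks below). Members were picked by symbol, and the families were chosen with earlier results of these data known.

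NR2F2 (COUP-TFII) belongs to the nuclear receptors, which bind DNA, and is found in interstitial cells of the fetal testis. ChIP-seq (chromatin immunoprecipitation with sequencing) was done with an NR2F2 antibody on whole E14.5 testes, E being the embryonic age in days, from the outbred mouse stock CD-1. No allele or treatment was named for any library. There were 2 ChIP libraries, each from an independent experiment on chromatin of pooled testes. The 1 input library is chromatin that was sheared and sequenced but not immunoprecipitated. Whole testes hold several cell types, and counts at peaks do not show which cells a signal came from. Totals over all peaks were 73251 counts in the input, 426784 in ChIP replicate 1 and 364261 in ChIP replicate 2. The 52 splicing factor peaks took 0.553% of the input total and 0.614% of each ChIP total.

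Splicing removes introns from a transcript and joins the exons. The work is done by the spliceosome, which is assembled from small nuclear ribonucleoproteins (snRNPs), each built of an RNA and proteins. A ring of Sm proteins (encoded by Snrp genes) surrounds the RNA of most snRNPs, and a related ring of LSm proteins binds the U6 RNA. SF3A and SF3B proteins belong to the U2 snRNP, which recognises the branch point of an intron. Many Prpf proteins act in the snRNPs that join later or in activation of the spliceosome. SR proteins (Srsf genes) bind exons and favour their inclusion, whereas hnRNP proteins coat nascent RNA and often oppose it. Such genes are active in most cell types.

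The sequences of 5 peaks are given, chosen for a motif or for high or low ChIP counts and not as typical of these promoters. All are from GRCm38 (mm10) and written on the plus strand, and each is the whole peak or its longest stretch outside untranslated exons. The first pair, at Hnrnpab and Hnrnpdl, is shown because these were the only splicing factor peaks with the extended nuclear receptor site searched here, AGAGGTCA or AGGGGTCA on either strand. In both, capitals mark that site and the shorter core hexamer, AGGTCA or GGGTCA on either strand. The extended forms contain the core forms.
Hnrnpab (chr11:51605764-51606063, plus strand): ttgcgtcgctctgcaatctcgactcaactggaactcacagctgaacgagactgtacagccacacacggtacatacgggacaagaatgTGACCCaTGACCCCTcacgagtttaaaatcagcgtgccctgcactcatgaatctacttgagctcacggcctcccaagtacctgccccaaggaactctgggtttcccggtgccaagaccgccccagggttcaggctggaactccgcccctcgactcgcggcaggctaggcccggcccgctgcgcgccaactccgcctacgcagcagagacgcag
Hnrnpdl (chr5:100039595-100039894, plus strand): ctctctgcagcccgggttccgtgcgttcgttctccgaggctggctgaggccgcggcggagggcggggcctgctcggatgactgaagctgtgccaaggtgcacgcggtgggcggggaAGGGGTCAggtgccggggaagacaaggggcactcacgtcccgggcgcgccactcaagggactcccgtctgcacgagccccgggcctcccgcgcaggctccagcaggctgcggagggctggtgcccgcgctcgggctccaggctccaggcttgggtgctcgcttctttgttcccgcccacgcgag
In Hnrnpab the extended site and a second core hexamer lie in the same orientation with 1 base between them. A search added after this sequence was seen found such a repeat in 1 of the 52 splicing factor peaks (1.92%), in 0.884% of promoter peaks and in 2.37% of all peaks. The next sequences are of Hnrnpm and Srsf2, shown for their high ChIP counts, and capitals mark the core hexamer on either strand.
Hnrnpm (chr17:33685119-33685379, plus strand): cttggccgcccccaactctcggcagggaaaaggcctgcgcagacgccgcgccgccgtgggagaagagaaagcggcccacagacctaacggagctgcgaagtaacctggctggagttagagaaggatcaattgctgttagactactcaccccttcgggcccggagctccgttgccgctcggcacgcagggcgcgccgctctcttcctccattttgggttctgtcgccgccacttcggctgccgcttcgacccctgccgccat
Srsf2 (chr11:116852646-116852929, plus strand): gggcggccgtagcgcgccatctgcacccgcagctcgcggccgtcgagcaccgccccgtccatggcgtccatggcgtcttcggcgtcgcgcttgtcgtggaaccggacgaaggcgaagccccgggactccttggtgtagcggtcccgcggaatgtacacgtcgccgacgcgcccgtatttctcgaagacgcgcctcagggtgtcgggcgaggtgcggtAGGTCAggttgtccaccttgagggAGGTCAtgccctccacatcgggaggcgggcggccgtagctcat
Hnrnpm shows no core hexamer, and Srsf2 shows 2 core hexamers inside a coding exon. The last sequence is of Srsf4, which had the fewest input counts and, tied with Srsf11, the fewest ChIP counts, and capitals mark a core hexamer and the CGCG element TCTCGCGA on either strand.
Srsf4 (chr4:131873176-131873475, plus strand): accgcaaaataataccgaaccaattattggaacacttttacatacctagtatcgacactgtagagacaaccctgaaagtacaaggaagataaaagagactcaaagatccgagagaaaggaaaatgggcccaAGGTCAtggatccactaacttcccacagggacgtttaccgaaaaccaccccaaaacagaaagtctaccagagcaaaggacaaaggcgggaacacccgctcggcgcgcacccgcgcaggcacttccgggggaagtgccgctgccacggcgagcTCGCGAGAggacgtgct

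A splicing factor gene had a promoter peak more often than protein-coding genes at large. Of the 80 genes 44 were bound (55.0%), against 28.1% of all protein-coding genes, which was 5894 of 21000. Splicing factor genes also had CpG-rich promoters more often. Of the members 72 of 80 (90.0%) had a promoter with a CpG observed-to-expected ratio of at least 0.6 and a GC content of at least 50% in the window from 250 bases before to 50 after the TSS, against 49.6% of protein-coding genes. Among genes with such a promoter, 58.3% of the splicing factor genes (42 of 72) and 46.8% of all protein-coding genes (4878 of 10422) were bound. Among genes without one, these shares were 25% (2 of 8) and 9.60%. In percentage points, the distance to the share over all genes was smaller within each of these groups than without the split. As a ratio, it was smaller only among genes with a CpG-rich promoter, and the other group held 8 members. The CpG split was chosen after the data had been seen, and its part in the result was not tested.

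Other housekeeping families had shares near or below that of the splicing factors. Cytosolic ribosomal protein genes (Rpl, Rps) were bound at 47 of 84 (56.0%), translation factor genes (Eif, Eef) at 36 of 71 (50.7%) and proteasome genes (Psm) at 18 of 51 (35.3%). Presence of a peak is 1 call for both replicates together, so these shares have no replicate error and none of the differences between families was tested.

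**Figure D1:**
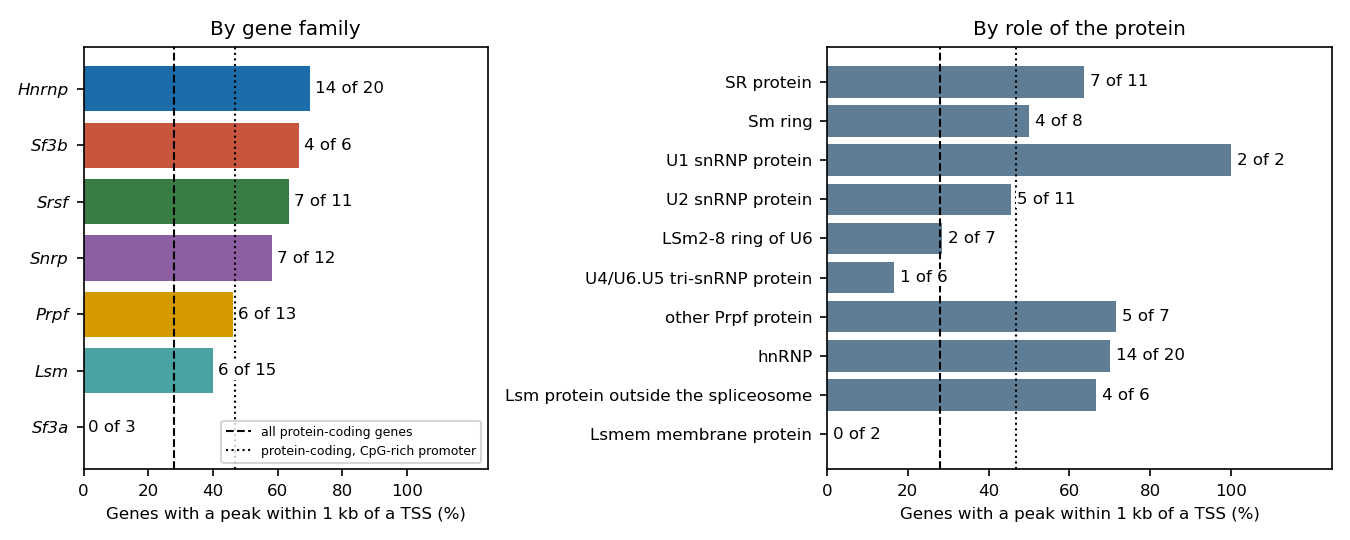
Share of genes (%) with an NR2F2 peak within 1 kb of a TSS, by gene family (left) and by the role of the protein (right), with the number of genes beside each bar. The dashed line is the share of all protein-coding genes (28.1%) and the dotted line that of protein-coding genes with a CpG-rich promoter (46.8%). Hnrnp genes stand highest among the families at 14 of 20, and no Sf3a gene of 3 was bound.

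Between the families the share ran from 70.0% for Hnrnp (14 of 20) to none of 3 for Sf3a. Sf3b followed at 66.7% (4 of 6), Srsf at 63.6% (7 of 11), Snrp at 58.3% (7 of 12), Prpf at 46.2% (6 of 13) and Lsm at 40.0% (6 of 15). Grouped by role, the U1 snRNP proteins with a Snrp symbol were bound at 2 of 2 genes (Snrnp70, another U1 protein outside the families, had no promoter peak), hnRNP proteins at 14 of 20 and SR proteins at 7 of 11. Prpf proteins outside the tri-snRNP were bound at 5 of 7 and Lsm proteins outside the spliceosome at 4 of 6. The Sm ring was bound at 4 of 8, the U2 snRNP (Sf3a, Sf3b, Snrpa1 and Snrpb2) at 5 of 11, the LSm ring of U6 at 2 of 7 and the Prpf proteins of the tri-snRNP at 1 of 6. With so few genes in a group, a single gene moves a share by many percentage points. The roles were assigned after the peaks had been seen.

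Read counts were similar between most families and differed most for Prpf in replicate 2. At the 52 peaks the median was 7 counts in the input, 46 in ChIP replicate 1 and 38 in ChIP replicate 2, against 7, 40 and 33 at all promoter peaks. The member peaks lay somewhat above the promoter peaks in both replicates. Medians were also higher at peaks of cytosolic ribosomal protein genes (51 and 42) and translation factor genes (47.5 and 37). At peaks of proteasome genes they were lower (33 and 29). When promoter peaks were ordered by mean ChIP count and cut into 4 groups of near equal size, 7, 11, 18 and 16 splicing factor peaks fell in these groups, from the weakest to the strongest. In replicate 1 the family medians ran from 43 (Srsf) to 50.5 (Lsm), and in replicate 2 from 21.5 (Prpf) to 46.5 (Sf3b). The order of the families was not the same in the 2 replicates: Lsm stood first in replicate 1 and below Sf3b, Hnrnp and Snrp in replicate 2, where Prpf stood last.

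**Figure D2:**
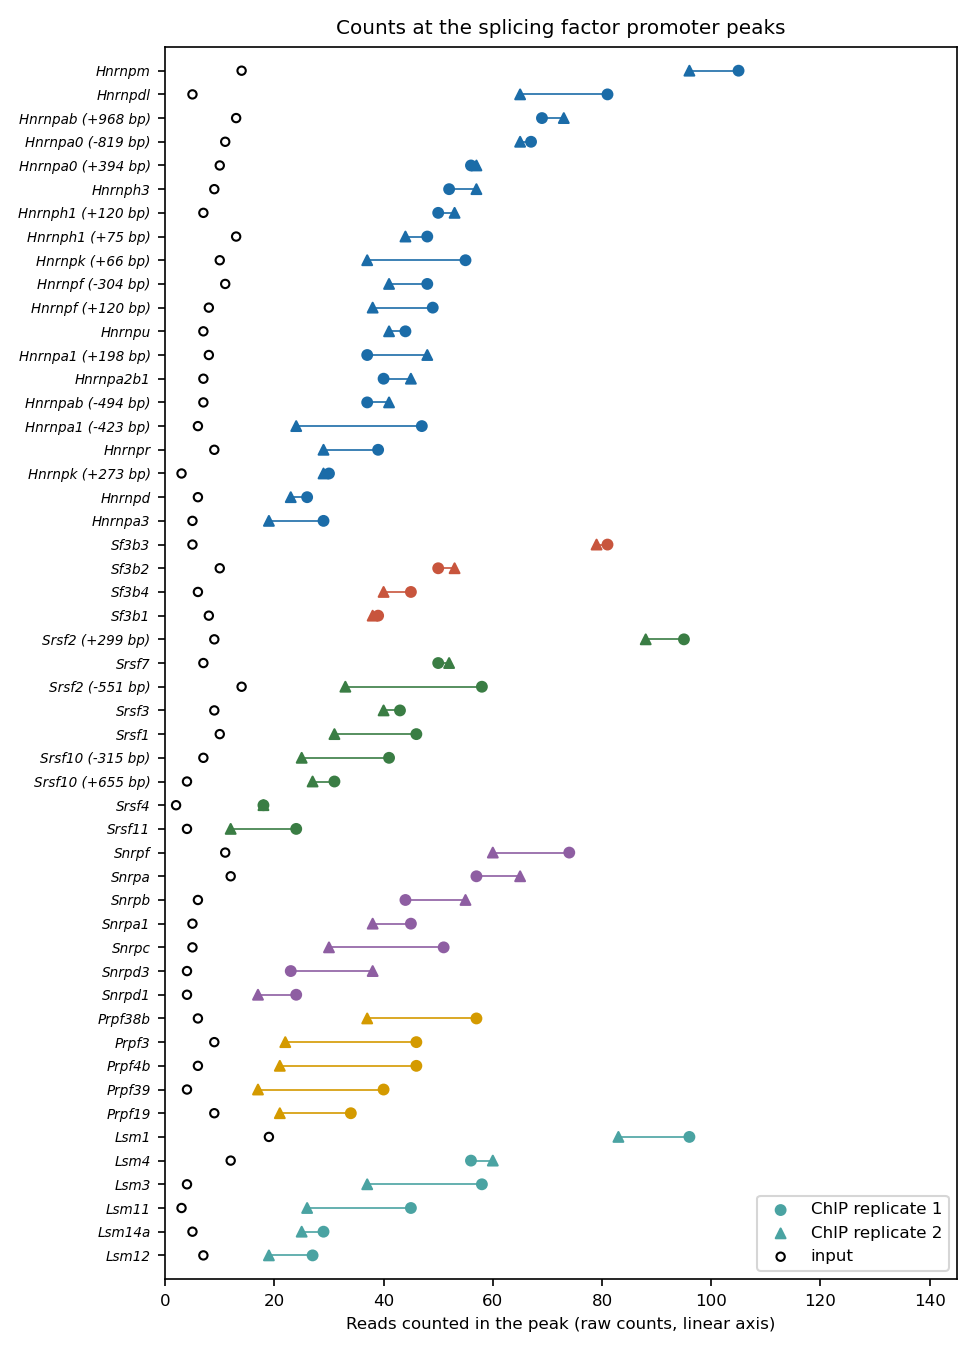
Raw counts of reads (linear axis) at 51 splicing factor promoter peaks, in ChIP replicate 1 (filled circles), ChIP replicate 2 (triangles) and the input (open circles), with a line joining the replicates and colours for families. The position of the peak midpoint from the TSS is given where a gene has 2 peaks. Hnrnpm stands furthest to the right with 105 and 96 counts, and every input count lies at 19 or below.

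Among SR proteins the strongest peak was at Srsf2 (gene ID 20382), which encodes a protein that binds exonic enhancers. This peak, chr11:116852646-116852945 in a coding exon with its midpoint 299 bp downstream of the TSS, held 95 and 88 ChIP counts and 9 input counts. A second Srsf2 peak, 850 bp from the first and upstream of the TSS, held 58 and 33 ChIP counts and 14 input counts. The downstream peak was the higher in both replicates. The upstream peak had the most input counts of any Srsf peak. Both lie within 1 kb of a TSS of the neighbouring gene Mfsd11 as well. Srsf7 had 50 and 52 ChIP counts against 7 input counts, in an intron with its midpoint 162 bp downstream of the TSS. Srsf10 had a peak upstream with 41 and 25 counts and one in an intron with 31 and 27. Neither Srsf10 peak was clearly the stronger, since their means of 33 and 29 differed by less than the spread between the replicates at the upstream one.

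The weakest splicing factor peaks were also at SR genes. Srsf4 held 18 and 18 ChIP counts and 2 input counts, at chr4:131873176-131873475 upstream of the gene. Srsf11 held 24 and 12 ChIP counts and 4 input counts. Both summed to 36, where the lowest sum at any peak was 24. Srsf1 had 46 and 31 counts against 10 in the input, and Srsf3 had 43 and 40 against 9. The unbound SR genes were Srsf5, Srsf6, Srsf9 and Srsf12. The nearest peak to Srsf6 lay 1244 bp from its TSS, just beyond the 1 kb limit, with 23 and 47 ChIP counts and 4 input counts.

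Of the genes of the Sm ring, Snrpb, Snrpd1, Snrpd3 and Snrpf were bound, and Snrpd2, Snrpe, Snrpg and Snrpn were not. Snrpf (gene ID 69878) had the highest peak, chr10:93589530-93589829 across its TSS, with 74 and 60 ChIP counts and 11 input counts. This peak is shared with the non-coding gene 4933408J17Rik. At the lower end, Snrpd1 held 24 and 17 ChIP counts and 4 input counts. Snrpn, an imprinted gene expressed mostly in brain, was 1252872 bp from the nearest peak, and none of its curated TSSs had a CpG-rich promoter.

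Both U1 snRNP genes of the Snrp family were bound. Snrpa (gene ID 53607) had 57 and 65 ChIP counts and 12 input counts at chr7:27196187-27196486, which covers a TSS and is shared with the gene BC024978. Snrpc had 51 and 30 ChIP counts and 5 input counts in its 5′ UTR.

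In the U2 snRNP, 4 of 6 Sf3b genes and none of 3 Sf3a genes had a peak, against 28.1% of all protein-coding genes. This difference rests on few genes and was not tested. Sf3b3 (gene ID 101943), a large scaffold subunit of SF3B, had 81 and 79 ChIP counts and 5 input counts at chr8:110846562-110846861. Its peak covers the start of the gene, and the midpoint lies in the annotated 5′ UTR of both Sf3b3 and Cog4. The replicates lay close together there and far above the input. Sf3b2 had 50 and 53 counts against 10 in the input. Sf3b4 had 45 and 40 against 6, and Sf3b1, which contacts the branch point, had 39 and 38 against 8. The unbound genes of this snRNP were Sf3a1, Sf3a2, Sf3a3, Sf3b5, Sf3b6 and Snrpb2, while Snrpa1 was bound with 45 and 38 counts against 5.

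In the LSm family, the highest peak belonged to Lsm1 (gene ID 67207), which acts in cytoplasmic mRNA decay and not in the spliceosome. At chr8:25785304-25785603, across the TSS of Lsm1 and shared with Bag4, it held 96 and 83 ChIP counts. No other splicing factor peak had as many input counts as its 19. Within the LSm ring of U6, Lsm4 had 56 and 60 counts against 12 in the input, and Lsm3 had 58 and 37 against 4 in a peak across its TSS. Lsm2, Lsm5, Lsm6, Lsm7 and Lsm8 had no promoter peak. Lsm11, a protein of the U7 snRNP that processes histone mRNA, had 45 and 26 counts against 3. Lsm14a had 29 and 25 against 5, and Lsm12 had 27 and 19 against 7. The remaining unbound genes were Lsm10, Lsm14b, Lsmem1 and Lsmem2, and the last pair encodes membrane proteins that share only the start of the symbol. Lsm10 was 1403 bp from a peak with 37 and 41 ChIP counts.

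Prpf38b (gene ID 66921), whose protein acts in the spliceosome, had 57 and 37 counts against 6 in the input, in a coding exon.

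At the following Prpf genes replicate 2 held fewer counts than replicate 1. Prpf3 had 46 and 22 counts, Prpf4b had 46 and 21, Prpf39 had 40 and 17, and Prpf19 had 34 and 21. In CPM, which scales each library to the same total at peaks, the Prpf median was 108 in replicate 1 and 59.0 in replicate 2, whereas the Hnrnp median was 112 and 117. Prpf3 and Prpf19 had 9 input counts each, Prpf4b had 6 and Prpf39 had 4. Of the 6 Prpf genes grouped here as tri-snRNP proteins Prpf3 was bound, and Prpf4, Prpf6, Prpf8, Prpf31 and Prpf38a were unbound together with Prpf18 and Prpf40b.

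The Hnrnp family held 20 of the 52 peaks. Hnrnpm (gene ID 76936) was the strongest with 105 and 96 ChIP counts and 14 input counts, at chr17:33685119-33685418 in a coding exon. Hnrnpdl (gene ID 50926) had 81 and 65 ChIP counts and 5 input counts at chr5:100039595-100039894, upstream of the gene and within 1 kb of Enoph1. Hnrnpab (gene ID 15384) had 69 and 73 ChIP counts and 13 input counts at chr11:51605764-51606063, in an intron. That Hnrnpab peak was the most distal of the member peaks on the downstream side, with its midpoint 968 bp from the TSS. These 3 were well above the family medians of 48 and 42.5. At the low end, Hnrnpa3 had 29 and 19 counts against 5, and Hnrnpd had 26 and 23 against 6. Hnrnph3 (52 and 57 against 9), Hnrnpu (44 and 41 against 7), Hnrnpa2b1 (40 and 45 against 7) and Hnrnpr (39 and 29 against 9) lay between. Unbound were Hnrnpc, Hnrnph2, Hnrnpl, Hnrnpll, Hnrnpul1 and Hnrnpul2. Hnrnpl, 1656 bp from a peak with 80 and 59 ChIP counts and 6 input counts, had the strongest peak of any member just outside the limit.

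Some genes had more than 1 promoter peak. Of the 44 bound splicing factor genes 8 (18.2%) had 2 promoter peaks, against 6.33% of bound protein-coding genes (373), and 6 of the 8 were Hnrnp genes. This difference was not tested. Hnrnpa0 had 56 and 57 counts in one peak and 67 and 65 in the other, with 10 and 11 input counts. Hnrnpab had a second, weaker peak upstream with 37 and 41 counts against 7. Hnrnpk, which binds C-rich RNA, had 55 and 37 against 10 in its 5′ UTR and 30 and 29 against 3 in an intron. In each of these genes 1 peak was the higher in both replicates, as at Hnrnph1 (50 and 53 against 7 in one, 48 and 44 against 13 in the other). The replicates disagreed on the order at Hnrnpa1, with 47 and 24 counts against 6 in the upstream peak and 37 and 48 against 8 in the downstream one. Hnrnpf, with 49 and 38 against 8 and 48 and 41 against 11, did not show a stable order either. The midpoints of the Hnrnpf peaks were 9066 bp apart, at different TSSs of the gene. In the other 7 genes the distance ran from 621 bp at Hnrnpa1 to 1462 bp at Hnrnpab. Neighbouring peaks at 1 promoter are not independent observations.

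Several of these peaks were shared with another gene. Of the 52 peaks 17 (32.7%), at 14 genes, were also within 1 kb of a TSS of a gene outside the families, against 18.1% of promoter peaks. The partners included Cbx5 at Hnrnpa1, Cbx3 at Hnrnpa2b1, Rmi1 at Hnrnpk, Pbld2 at Hnrnph3, Xpc at Lsm3 and Gucd1 at Snrpd3. Gm39859 was the partner at Hnrnpa3. A peak at such a promoter cannot be assigned to 1 of the 2 genes from these data. Sharing with another gene was seen at 40.4% of peaks of cytosolic ribosomal protein genes. It was seen at 30.6% of peaks of translation factor genes and 21.1% of those of proteasome genes.

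In position and GC content the splicing factor peaks lay close to other promoter peaks, and their CpG ratio was higher. A TSS of the gene lay inside 20 of the 52 (38.5%), and 11 (21.2%) lay upstream and 21 (40.4%) downstream of it. Over all promoter peaks these shares were 40.7%, 21.1% and 38.2%. The midpoint fell 85 bp downstream of the TSS in the median, against 92 bp. By annotation of any gene, 18 midpoints were in an intron, 14 in a 5′ UTR, 7 in a coding exon, 1 in a non-coding exon and 12 outside any gene. At Snrpd3, Snrpa, Lsm14a and Snrpf the annotated intron or exon belonged to another gene. Median GC content was 65.5% against 65.3%, and the median CpG observed-to-expected ratio was 0.93 against 0.79.

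**Figure D3:**
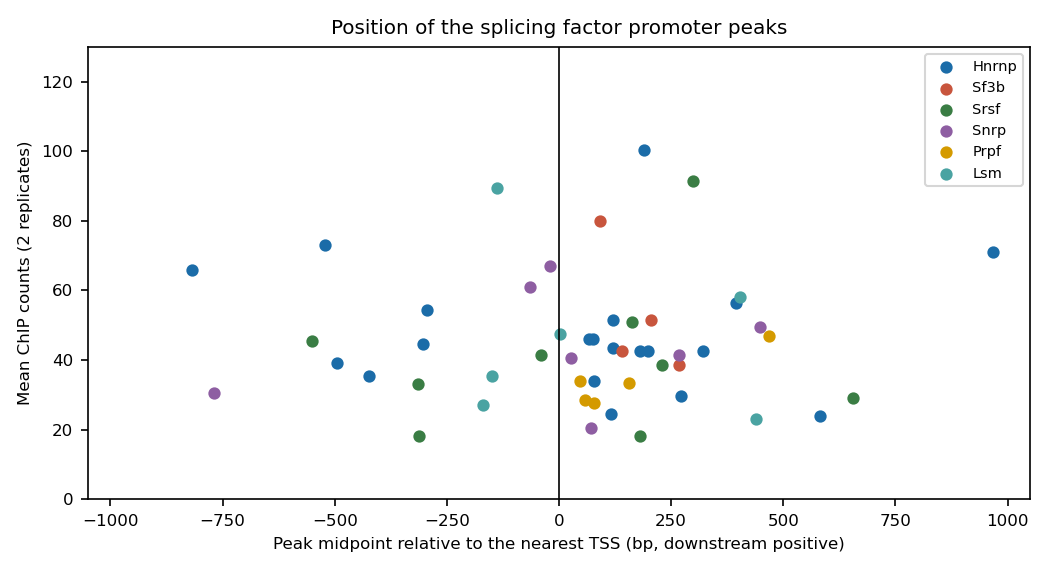
Mean ChIP count of the 2 replicates at 51 splicing factor promoter peaks (vertical axis) against the position of the peak midpoint from the nearest TSS in bp (horizontal axis, downstream positive), coloured by family. More midpoints lie downstream of the TSS than upstream.

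The replicates agreed about as well at the splicing factor peaks as at other promoter peaks. Across the 52 peaks Pearson's r of log2(CPM + 1) was 0.82 and Spearman's rho was 0.75, against 0.83 and 0.82 across promoter peaks. These are correlations across peaks, which are not independent replicates and share 2 libraries. At 8 of the 52 peaks the CPM differed by more than 1.5-fold between replicates, as at 786 of the 5654 promoter peaks. The widest differences were at Prpf39, where replicate 2 was 0.498 times replicate 1, and at Snrpd3 (23 and 38 counts against 4 in the input), where it was 1.94 times.

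The ratio of ChIP to input was then compared with that of the typical peak. In this test edgeR's quasi-likelihood fit used all 10069 peaks, with libraries scaled by TMM factors (trimmed mean of M-values) on the counts at peaks, so that a log2 ratio near 0 means a typical peak. The median log2 ratio was 0.17 over the splicing factor peaks, 0.11 over promoter peaks and 0.02 over all peaks. None of the 52 was called above the typical peak and none below at a Benjamini-Hochberg adjusted p under 0.05, where 1.53% of all peaks were called above and 0.0497% below. At an unadjusted p under 0.05 the fit gave 4 splicing factor peaks above and none below, where 525 of the 5654 promoter peaks were above and 89 below. DESeq2 called none of the 52, with no adjusted p given for 47. Sf3b3, Hnrnpdl and the downstream Srsf2 peak were among the 4. With about 7 input counts at a peak the standard errors were wide, so a peak that was not called may still differ from the typical peak. The smallest difference that the fit could detect was not worked out.

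Sf3b3 had the highest ratio, with a log2 value of 1.68 ± 0.56 (SE) and an edgeR adjusted p of 0.107. Hnrnpdl followed at 1.54 ± 0.57 (edgeR adjusted p = 0.194). Both ChIP replicates were high at each of these peaks. The lowest ratio was at Prpf19, with a log2 value of -0.71 ± 0.57 (edgeR adjusted p = 0.779). Srsf2 downstream was at 1.03 ± 0.46 (edgeR adjusted p = 0.363) and Hnrnpm at 0.53 ± 0.39, whereas Lsm1, with its high input, was at -0.08 ± 0.37.

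**Figure D4:**
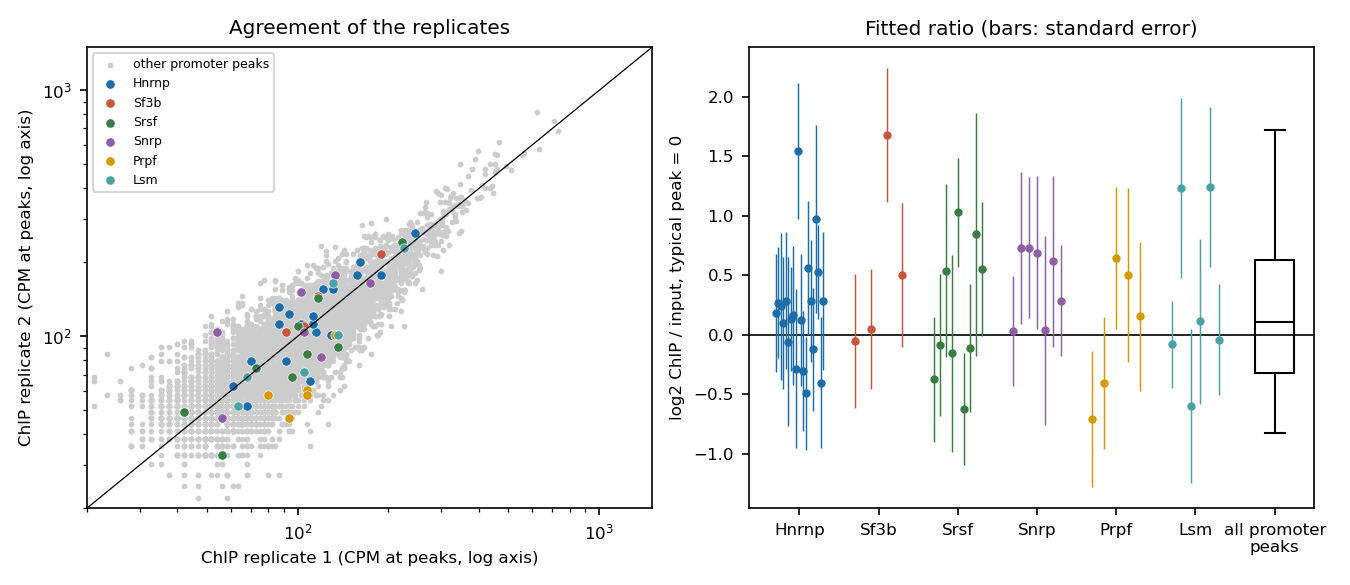
Left, CPM at peaks in ChIP replicate 1 against replicate 2 (log axes) for promoter peaks (grey) and splicing factor peaks (coloured by family), with the line of equality. Right, edgeR log2 ratio of ChIP to input, where 0 is the typical peak, for 51 splicing factor peaks with the standard error, and for all promoter peaks as a box from the 25th to the 75th percentile with whiskers at the 5th and 95th. The splicing factor peaks run from -0.71 at Prpf19 to 1.68 at Sf3b3.

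Taken at equal depth, with no scaling between libraries, 43 of the 52 peaks (background 80.7% of all peaks) were called above input by edgeR at an adjusted p under 0.05. Since the peaks had been called on the same ChIP reads, this describes how peaks were selected and is no separate evidence of binding. The 9 peaks not called were those of Srsf11, Lsm12, Prpf3, Prpf4b, Prpf19 and Prpf39, and the upstream peaks of Srsf2, Srsf10 and Hnrnpa1. At each of the 9, replicate 2 held fewer counts than replicate 1, as it did at 38 of the 52 splicing factor peaks and at 4197 of the 5654 promoter peaks. In CPM replicate 2 was also the lower at each of the 9, against 23 of the 52 and 3100 of the 5654. With robust fitting all 52 were called, with 9816 of the 10069 peaks, so the list of 9 from the first fit did not hold there. In the first fit the Prpf family had 2 of 6 called, and Sf3b and Snrp had 4 of 4 and 7 of 7.

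Sequence motifs were counted on both strands of each peak. The extended nuclear receptor site was in 2 of the 52 splicing factor peaks (3.85%), in 6.07% of promoter peaks and in 10.5% of all peaks. The core hexamer was in 23 (44.2%), 47.8% and 58.9%, which includes every peak with the extended site. Both shares were lower than over promoter peaks. Within 150 bp around the midpoint the extended site was in 3.85% against 3.52%, so the direction of that small difference depended on the window. The core hexamer was in 5 of the 6 Lsm peaks and in 1 of the 6 Prpf peaks. The peaks with the extended site, at Hnrnpab and Hnrnpdl, had median counts of 75 and 69 in the replicates against 46 and 38 for the other 50, a contrast of so few peaks that it is given as a description.

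Motifs of general promoter factors were also counted. The GC box GGGCGG, bound by Sp and Klf proteins, was in 55.8% of splicing factor peaks and 57.9% of promoter peaks. CCAAT, the NF-Y site, was in 30.8% against 24.4%, and CCGGAAGT, an ETS site, in 9.62% against 6.67%. The CGCG element TCTCGCGA was in 3 peaks (5.77%), at Hnrnpk, Lsm14a and Srsf4, against 1.57%. GCATGCGC (NRF1), TGACGTCA (CRE) and AAGATGGCG (YY1) were in 1 peak each (1.92%), against 3.29%, 2.30% and 3.10%. A match describes letters only and is not evidence of a factor's binding.

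Members without a promoter peak differed widely in the distance to one. Of the 36, 3 had a peak within 2 kb of a TSS, 7 within 10 kb, 24 within 50 kb and 32 within 100 kb. The same counts were not made over all protein-coding genes without a promoter peak, so these distances have no background. Their promoters were CpG-rich in 83.3%, against 95.5% of the bound members, with a median CpG ratio of 0.89 against 1.02.

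Splicing genes with other symbols were bound about as often. Of 131 genes listed by function, 70 (53.4%) had a promoter peak. These were 12 of 26 for proteins of the U snRNPs and the 3′ splice site, 23 of 39 for assembly and catalysis of the spliceosome, 5 of 9 for the exon junction complex, 6 of 12 for assembly of the Sm ring, 3 of 7 for SR protein kinases and 21 of 38 for other regulators. The groups all lay between 42.9% and 59.0%. At their 79 peaks the median ChIP counts were 40 and 34, and 5 peaks were called above the typical peak (107 of the 5654 promoter peaks were). The highest peaks of 4 of these groups were at Ik (133 and 116 ChIP counts, 9 in the input), Clk3 (130 and 116 against 6), Sart3 (114 and 128 against 12) and Wdr77 (129 and 103 against 9). Clk3, a kinase that phosphorylates SR proteins, had a log2 ratio of 2.03 ± 0.47 (edgeR adjusted p = 0.00273), and Ik, a spliceosome component, had 1.47 ± 0.42 (edgeR adjusted p = 0.0360). In the other 2 groups the highest peaks were at Sap18 and Pcbp1. Sap18 of the exon junction complex had 81 and 84 counts against 9, and Pcbp1, an RNA-binding regulator, had 82 and 93 against 15. The peaks at Ik, Sart3, Sap18 and Wdr77 are shared with Ndufa2, Iscu, Mir3077 and Atp5pb.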

How the data were processed

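NR2F2 ChIP-seq of whole E14.5 testes gave 2 ChIP libraries and 1 input, grouped by the sample labels. The deposited values are raw counts per peak, made by the authors. Per the methods, reads were trimmed with Trim Galore 0.6.7, mapped to mm10 with Bowtie2 and deduplicated with Picard 1.110. Peaks were called with HOMER 4.11.1 on both ChIP libraries merged, then set to 300 bp each. So every peak was selected on the counted reads. The rule for assigning reads to peaks was not given in the sources used here, and library totals outside peaks were not used.

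Peaks were joined to curated RefSeq transcripts (GRCm38) by the nearest edge. Fits used edgeR 4.0.16 (limma 3.58.1, R 4.3.3) on all 10069 peaks and 3 libraries, with Benjamini-Hochberg adjustment over all peaks. They assume that the single input varies like the ChIP libraries. DESeq2 1.42.0 was an alternative. Standard errors came from the log2 ratio and the F statistic. The fits were tested on simulated data. Motifs were read from GRCm38 at 10064 peaks; 5 on unplaced contigs were left out. Correlations and shares are across peaks or genes, with no test.

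The members and gene lists were chosen with earlier results of these data known. Genes named with values were, by rule, the 2 strongest genes of each family, the 3 weakest peaks, every gene with 2 peaks, every called member peak, the extremes of the log2 ratio and peaks with the extended site, and the highest peak of each group of other splicing genes. Other values, the roles, the CpG classes and the direct repeat were chosen after the data had been seen. One member is not reported here by itself. Alternatives covered the distance to a TSS, the scaling, the tool, the filter on input counts and the motif.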

Additional observations from a re-analysis of the deposited data

How the results depend on the processing

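With a peak required to overlap a TSS, 23.75% of splicing factor genes were bound, against 11.4% of protein-coding genes. With a shorter or longer distance, by midpoint or without Lsmem1 and Lsmem2, the share stayed between 53.75% and 58.75%. Restriction to CpG-rich promoters, chosen after seeing the data, gave 58.3% against 46.8%. The median mean ChIP count of 42.5 (36.5 at promoter peaks) was 38 without replicate 1 and 46 without replicate 2, and 108 against 91.8 as CPM. Without peaks shared with another gene it was 40.5 against 35.5.

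The count of splicing factor peaks called above the typical peak was 0 with TMM, DESeq2 size factors, no factors, robust fitting and the DESeq2 Wald test, and 1 of 15 with at least 10 input counts. Over all 10069 peaks the first 5 settings called 154, 39, 102, 154 and 22, and the last called 58 of 2427. Leaving out the factors shifted the typical log2 ratio by -0.11 over all peaks. Above input, edgeR called 43 at equal depth, 0 with ChIP libraries taken as 2 times deeper than input (0 of all 10069), 52 with them 2 times shallower (9858 of all), 52 with robust fitting (9816 of all), 42 with DESeq2 (6006 of all), and 14 of 15 with at least 10 input counts (2149 of 2427). The core hexamer alone was in 44.2% of the peaks, and the 150 bp window gave the extended site in 3.85% against 3.52% of promoter peaks. No test was possible without a ChIP replicate, since no residual degree of freedom remains. No paired analysis was possible because the input carries no replicate number. Input counts limit every ratio.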
